A study of Mus musculus with 57 samples.

Results

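The genes of the nuclear receptors for estrogens, progesterone, corticosteroids, thyroid hormone and vitamin D were examined in cortex and gastrocnemius. The 8 genes, Esr1, Esr2, Pgr, Nr3c1, Nr3c2, Thra, Thrb and Vdr, were chosen by name, out of 24963 autosomal genes of the curated RefSeq set on mm10. Together they have 14 transcription start sites (TSSs). Windows of 1 kb on each side of a TSS, joined where they overlap, gave 11 promoters, because Esr1, Nr3c1 and Thrb each have 2.

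Nuclear receptors are transcription factors that bind a small fat-soluble hormone and then act on genes whose DNA carries their response element. Steroid receptors are held in the cytoplasm by chaperones or already sit in the nucleus, whereas thyroid hormone and vitamin D receptors pair with a retinoid X receptor on DNA. In brain, corticosteroid and thyroid hormone receptors act on neurons and glia, and in skeletal muscle glucocorticoids and thyroid hormone influence protein turnover and fiber type.

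Chromatin immunoprecipitation with sequencing (ChIP-seq) measured 3 modifications of histone H3. H3K4me3 marks active or poised promoters, H3K27ac marks active promoters and enhancers, and H3K27me3 is laid down by Polycomb proteins over repressed genes. The animals were PSAPP mice, which carry transgenes for mutant human presenilin 1 and a chimeric mouse and human amyloid precursor protein with the Swedish mutation and serve as a model of Alzheimer's disease. All were 13 months old, had been housed singly on a modified AIN-93 diet since 6 months of age, and no animals without the transgenes were profiled. Each mark has 9 cortex and 10 gastrocnemius libraries, 57 in all, from 10 mice, of which 9 gave both tissues, and males and females were pooled here because the labels do not give the sex of a library. The promoters that drive the transgenes are not given in the sources used here.

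Each library is known through its called peaks and the number of reads in each. A promoter or gene body received the part of each peak's reads that its overlap with the peak gave, scaled to 1000000 reads of the library in autosomal peaks (RPM), and levels are given per kb of the feature so that genes of different length can be compared. A library without a peak at a feature gives no count, which is not the same as no modification. Calls and reads were therefore tested apart, over all autosomal features. Fisher's exact test (two-sided) compared how many libraries of each tissue had a peak, and edgeR's quasi-likelihood test compared the reads where every library had one. Adjusted p values are Benjamini-Hochberg values over all features of a test, and a feature was called below 0.1. Differences are log2 values, cortex minus gastrocnemius, with their standard errors.

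Reads in autosomal peaks ranged between 9.32 and 18.6 M in cortex and 9.03 and 14.8 M in gastrocnemius for H3K4me3, between 3.90 and 21.0 M and 15.6 and 27.04 M for H3K27ac, and between 3.90 and 6.35 M and 2.99 and 18.2 M for H3K27me3. Cortex library 9 of H3K27ac was the shallowest of its mark with 3.90 M, and gastrocnemius library 5 of H3K27me3 was the deepest of its mark with 18.2 M. As a check of the tissue labels, H3K4me3 at the promoters of the neuronal genes Snap25, Gad1 and Rbfox3 was called in 9, 9 and 7 of 9 cortex libraries and in 0 of 10 gastrocnemius libraries, whereas the neuronal genes Slc17a7 and Syt1 had a peak in every library of both tissues. The muscle fiber genes Ckm, Myh1, Myh4, Tnnt3 and Ttn had an H3K4me3 peak in 10 of 10 gastrocnemius libraries and in 0 of 9 from cortex, Acta1 in 10 of 10 and 1 of 9, and Mylpf in every library of both. The summed H3K4me3 level of the 5 neuronal markers was 120 to 170 RPM in cortex and 7.75 to 15.04 RPM in gastrocnemius, and that of the 7 muscle fiber markers was 33.2 to 50.4 and 100 to 144 RPM. For H3K27ac these sums were 49.99 to 83.2 and 6.002 to 8.756 RPM for neuronal markers, and 15.38 to 25.81 and 49.78 to 77.26 RPM for muscle fiber markers. For H3K27me3 the neuronal sums overlapped, at 25.54 to 56.37 and 30.34 to 67.7 RPM. The muscle fiber sums of that mark were 32.65 to 43.61 and 0 to 8.45 RPM. Both samples are mixtures. Pdgfra and Col1a1, which fibroblasts express, and Cdh5, Cldn5 and Pecam1 of vessels had H3K4me3 peaks in every library of both tissues, Pax7 and Myf5 of satellite cells in 10 of 10 gastrocnemius libraries only, and Adipoq of adipocytes in none at the promoter used. Of the glial genes, Gfap, Cx3cr1 and Mog had a peak in 9 of 9 cortex and 0 of 10 gastrocnemius libraries, Mbp in every library of both and Aqp4 in none, and Ptprc of blood cells had one in 7 of 9 and 0 of 10. Fewer cells of a type and less of a mark per cell cannot be told apart in such samples, and the part of cell composition in the differences below was not tested.

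Libraries scaled by reads in peaks ran higher at promoters in cortex as a whole. With that scaling alone, the median log2 difference over all promoters tested was 0.33 for H3K4me3, 0.29 for H3K27ac and 0.11 for H3K27me3, whereas with the trimmed mean (TMM) factors of the edgeR test it was 0.03, 0.02 and 0.01. The calls then split as 8743 higher in cortex and 1738 higher in gastrocnemius for H3K4me3, against 4116 and 3608 with TMM. For H3K27ac the split was 7064 and 1205 against 3656 and 3377, and for H3K27me3 332 and 136 against 552 and 512. Levels in RPM per kb carry this shift, and the edgeR differences are relative to it.

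At promoters, H3K4me3 was present in every library at 9 of the 11 receptor promoters, as it was at 52.6% of all promoters. Among these 9, edgeR called 2 higher in cortex, where 28.9% of all promoters tested were called that way, and 4 higher in gastrocnemius, where 25.3% were. Fisher's test called 1 of 11, with more cortex libraries, against 3.82% of all promoters. For H3K27ac, 4 promoters had a peak in every library (51.5% of all promoters) and 1 was called higher in cortex (26.2% of all promoters tested), and Fisher's test called 3 of 11 in favor of cortex (6.64%). For H3K27me3, 5 of 11 promoters had no peak in any library, as was the case for 56.2% of all promoters. Of the 2 with a peak in every library, 1 was called higher in gastrocnemius (23.6%), and Fisher's test called 1 of 11 in favor of cortex (3.44%).

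Over gene bodies, edgeR called H3K4me3 higher in cortex at 1 of 8 genes (32.8% of all bodies tested) and higher in gastrocnemius at 3 of 8 (33.1%). H3K27ac was called higher in gastrocnemius at 3 of the 5 bodies tested (35.0%), and Fisher's test called 1 of 8 in favor of cortex (5.76%). H3K27me3 bodies were called in favor of cortex by Fisher's test at 2 of 8 genes (4.64%), and of the 2 tested by edgeR 1 was called higher in cortex (31.3%) and 1 higher in gastrocnemius (31.3%). With so few members nothing about the group is read from these counts, and each gene is described on its own.

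**Figure D1:**
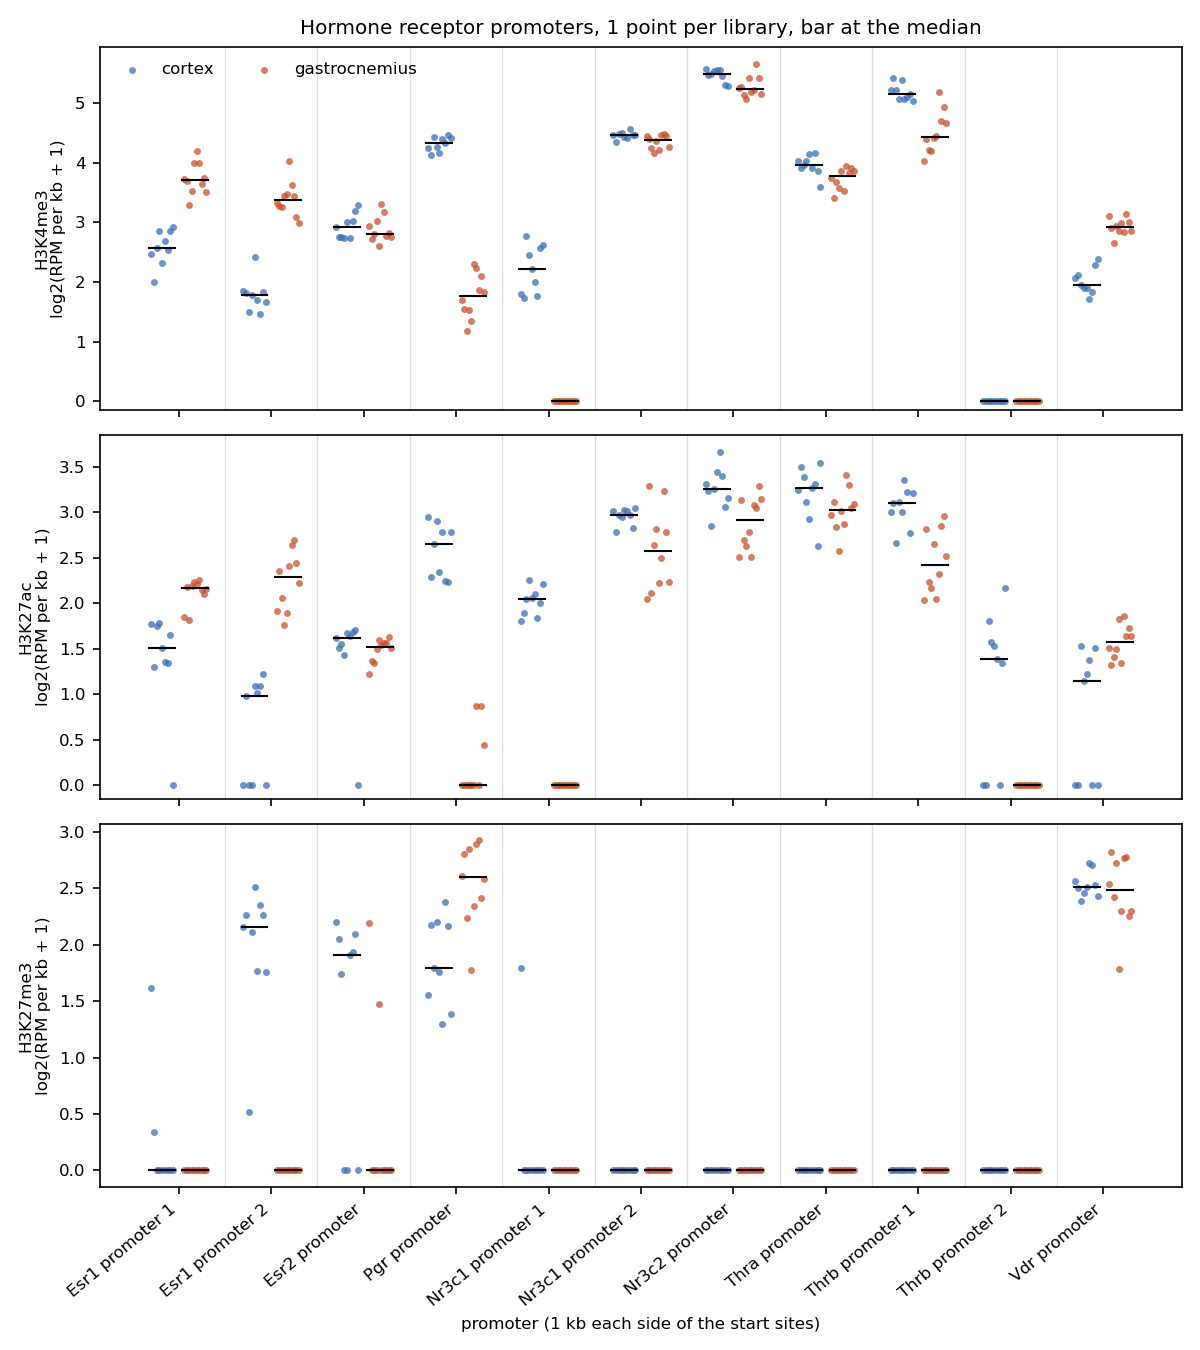
Level of H3K4me3, H3K27ac and H3K27me3 (log2 of RPM per kb plus 1, vertical axes) at the 11 receptor promoters, with 1 point per library (9 cortex, 10 gastrocnemius), a bar at the median, and libraries without a peak drawn at 0. Pgr stands high in cortex and both Esr1 promoters stand high in gastrocnemius for H3K4me3, and at Nr3c1 promoter 1 only cortex points lie above 0.

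The H3K4me3 promoters fell into an order that both tissues partly shared. In cortex the medians ran from Nr3c2 (43.8 RPM per kb) over Thrb promoter 1 (34.7), Nr3c1 promoter 2 (21.1), Pgr (18.99), Thra (14.6), Esr2 (6.58), Esr1 promoter 1 (4.90), Nr3c1 promoter 1 (3.67) and Vdr (2.85) to Esr1 promoter 2 (2.45). Only 2 neighbors in this order did not overlap in their libraries, Thrb promoter 1 over Nr3c1 promoter 2 and Thra over Esr2. In gastrocnemius the same 3 promoters led, Nr3c2 (36.6), Thrb promoter 1 (20.6) and Nr3c1 promoter 2 (19.9), followed by Thra (12.7), Esr1 promoter 1 (12.02), Esr1 promoter 2 (9.41), Vdr (6.55), Esr2 (6.01) and Pgr (2.40). Here Nr3c1 promoter 2 over Thra and Esr2 over Pgr were the neighbors without overlap. Among promoters called in every library of a tissue, Pgr was in place 4 of 10 in cortex and last of 9 in gastrocnemius, where Nr3c1 promoter 1 and Thrb promoter 2 had no peak in any.

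Esr1 (chr10:4611989-5005633, plus strand) encodes estrogen receptor alpha, the main receptor of estradiol in reproductive tissues. It was marked by H3K4me3 and H3K27ac more strongly in gastrocnemius and by H3K27me3 in cortex only. Its promoters, 1 at the 5' end of the gene and 1 inside it, are far apart, and the 250 bases before each start (GRCm38.p6, the assembly of mm10, RefSeq, plus strand, chr10:4611739-4611988 and chr10:4709908-4710157) are shown because H3K4me3 differed at both. Capitals mark CpG dinucleotides.
Esr1 promoter 1: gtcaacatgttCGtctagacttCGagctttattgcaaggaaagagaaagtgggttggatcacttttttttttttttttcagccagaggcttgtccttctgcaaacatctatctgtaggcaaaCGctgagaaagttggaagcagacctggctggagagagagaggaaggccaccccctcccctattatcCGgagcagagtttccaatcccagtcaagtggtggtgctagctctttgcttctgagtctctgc
Esr1 promoter 2: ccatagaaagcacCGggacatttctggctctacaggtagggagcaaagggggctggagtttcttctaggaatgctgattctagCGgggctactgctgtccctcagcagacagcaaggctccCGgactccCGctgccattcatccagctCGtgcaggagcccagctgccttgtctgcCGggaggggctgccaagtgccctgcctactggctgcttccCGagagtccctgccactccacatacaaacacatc
Promoter 1 holds 4 CpGs and promoter 2 holds 7, around the median of 6 over the 31396 promoter sequences read.

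At Esr1 promoter 1, H3K4me3 was lowest 3.002, median 4.90 and highest 6.56 RPM per kb in cortex, and 8.75, 12.02 and 17.2 in gastrocnemius. The tissues did not overlap, and the log2 difference was -1.60 ± 0.15 (SE, edgeR adjusted p = 1.95e-10). Promoter 2 ranged between 1.74 and 4.35 with a median of 2.45 in cortex and between 6.88 and 15.3 with a median of 9.41 in gastrocnemius, again without overlap, for a difference of -2.29 ± 0.18 (edgeR adjusted p = 4.95e-12). H3K4me3 was thus lower in cortex at both starts.

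H3K27ac followed the same direction at Esr1. Promoter 1 was called in 8 of 9 cortex libraries, with 1.45 to 2.44 RPM per kb where called, and in 10 of 10 gastrocnemius libraries, with 2.53 to 3.79. The library without a peak was the shallow cortex library 9. Leaving out the shallowest library of each tissue left every library with a peak, and the difference was then -1.02 ± 0.14 (edgeR adjusted p = 3.84e-06, 8 against 9 libraries). Promoter 2 had a peak in 5 of 9 cortex libraries (at most 1.33 RPM per kb) and in 10 of 10 from gastrocnemius (2.38 to 5.47), a difference in calls that did not pass the test (Fisher adjusted p = 0.264), although the levels did not overlap.

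H3K27me3 showed the opposite side. At promoter 2 it was called in 9 of 9 cortex libraries, at 0.434 to 4.72 RPM per kb with a median of 3.45, and in 0 of 10 gastrocnemius libraries (Fisher adjusted p = 0.000482). All 9 cortexes had H3K4me3 and H3K27me3 peaks at promoter 2 in the same mouse, a pairing found in every cortex at 6.85% of all promoters. Each mark only had to overlap the promoter window, and in cortex 3 H3K27me3 covered 7.90% of it. Whether both marks sat in the same cells was not measured. Promoter 1 had an H3K27me3 peak in 2 of 9 cortex libraries, and with windows of 2.5 kb the cortex was called more often (adjusted p = 0.0112).

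Along the 394 kb body of Esr1 the marks were separated by tissue. H3K4me3 over the body was 0.0534 to 0.0731 RPM per kb in cortex and 0.227 to 0.378 in gastrocnemius (difference -2.16 ± 0.11, edgeR adjusted p = 2.05e-15). Besides the promoters, H3K4me3 peaks lay 8.21 to 10.4 kb and 18.6 to 22.2 kb downstream of the first TSS in 10 of 10 gastrocnemius libraries and in 0 of 9 from cortex. A site here is a stretch of merged peaks of all libraries, kept where at least 3 libraries of 1 tissue had a peak. A site missing in 1 tissue therefore entered through the other. How many sites elsewhere in the genome lack a tissue was not counted, so site counts describe single genes only. H3K27ac formed 12 sites within the gene and 10 kb of flank, of which 10 were called in at most 1 cortex library. The body held 0.163 to 0.366 RPM per kb of H3K27ac in gastrocnemius and at most 0.0266 in cortex (difference -3.57 ± 0.20 without the shallowest libraries, edgeR adjusted p = 7.73e-12). H3K27me3 formed 10 sites, all kept through their cortex peaks, and each without a peak in any gastrocnemius library. The longest, 43600 bp over all libraries, ran from 74.4 to 118 kb downstream of the first TSS, covered promoter 2, and was called in 9 of 9 cortexes. Body H3K27me3 was 0.260 to 0.621 RPM per kb in cortex (Fisher adjusted p = 0.000383), and it covered 7.37 to 21.3% of the body, so a rule that asked for 25% coverage found no call.

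**Figure D2:**
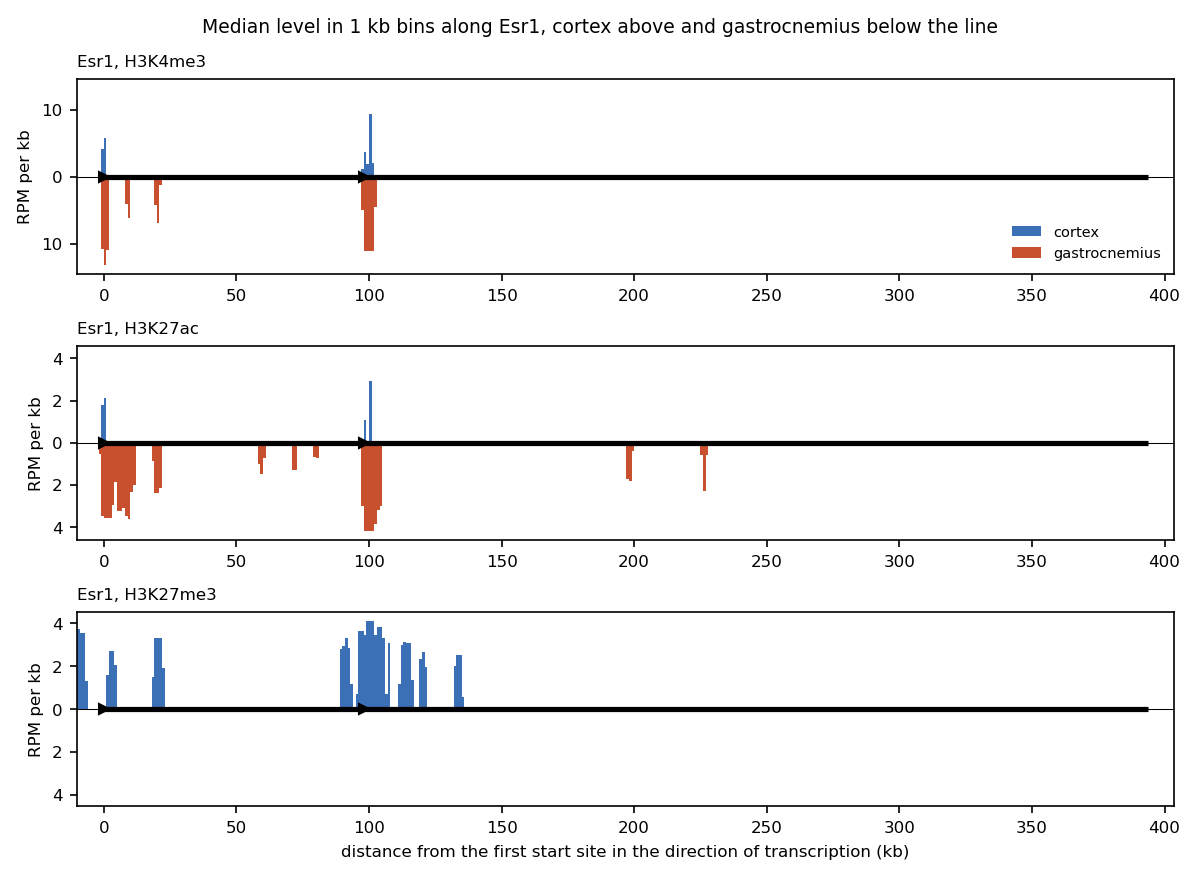
Median level over libraries (RPM per kb, vertical axes) in 1 kb bins along Esr1 for the 3 marks, cortex upward and gastrocnemius downward, against the distance from the first start site in kb. The bar is the gene, arrowheads are start sites, and bins are flat where they lie in 1 peak because a peak has a single count. H3K27me3 bars appear for cortex only, and H3K27ac bars extend from both start sites in gastrocnemius.

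Esr2 (chr12:76120419-76177259, minus strand) encodes estrogen receptor beta. Its promoter carried similar H3K4me3 in both tissues, while its body differed in H3K27me3. H3K4me3 at the promoter was 5.64, 6.58 and 8.79 RPM per kb (lowest, median, highest) in cortex and 5.04, 6.01 and 8.91 in gastrocnemius, and the ranges overlapped almost fully. The edgeR difference of -0.26 ± 0.14 did not pass (adjusted p = 0.116). It turned to 0.05 with scaling by reads in peaks alone. It passed with DESeq2 (-0.30, adjusted p = 0.0807) and among libraries without an S code in their names (-0.41, adjusted p = 0.00907). That code, an S with digits, stands in some deposited file names, and the sources used here do not say what it marks. H3K27ac at the promoter was called in 8 of 9 cortex libraries and in 10 of 10 from gastrocnemius, at no more than 2.27 RPM per kb in either.

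Over the Esr2 body, H3K27me3 was called in 9 of 9 cortex libraries at 1.32 to 2.26 RPM per kb (median 1.60) and in 2 of 10 gastrocnemius libraries at no more than 0.375 (Fisher adjusted p = 0.0111). It covered a median of 42.7% of the body in cortex. The strongest site lay 38.9 to 57.9 kb downstream of the TSS, at the 3' end of the gene, and was called in 9 of 9 cortexes and 0 of 10 gastrocnemius libraries. At the promoter itself H3K27me3 was called in 6 of 9 and 2 of 10 libraries, which did not pass the test (Fisher adjusted p = 0.524). The 3' end of Esr2 carried H3K27ac in muscle instead. A site from 44.1 to 76.9 kb downstream of the TSS was called in 10 of 10 gastrocnemius libraries (8.84 to 76.3 RPM) and 1 of 9 cortexes. This site runs into the 3' end of Syne2, a nuclear envelope gene on the other strand whose end lies 9491 bp from that of Esr2. Body H3K27ac was 0.0880 to 0.716 RPM per kb in gastrocnemius and at most 0.0401 in cortex (difference -3.01 ± 0.38 without the shallowest libraries, edgeR adjusted p = 6.59e-07). ChIP-seq reads have no strand of transcription, so they cannot be given to 1 of the 2 genes.

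Pgr (chr9:8899833-8968611, plus strand) encodes the progesterone receptor, itself a known target of estrogen receptor alpha. Among the receptor promoters tested by edgeR it had the largest H3K4me3 difference toward cortex, and it carried H3K27me3 in every library. The 250 bases before its start (chr9:8899583-8899832, plus strand, same assembly) are shown because H3K4me3 was higher there in cortex and H3K27me3 higher in gastrocnemius. Capitals again mark CpG.
Pgr promoter: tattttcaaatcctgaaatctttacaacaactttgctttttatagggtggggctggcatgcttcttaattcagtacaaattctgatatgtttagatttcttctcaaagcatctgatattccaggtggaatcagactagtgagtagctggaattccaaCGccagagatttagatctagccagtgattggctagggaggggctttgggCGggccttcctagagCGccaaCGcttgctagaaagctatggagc
The stretch has 4 CpGs. It holds 1 GC box (GGGCGG, either strand, 47 bases before the start), a motif found in 33.0% of all promoters of this length, and 1 TATAAA on the opposite strand at 212 bases before the start (12.4%).

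H3K4me3 at the Pgr promoter was 16.4, 18.99 and 21.1 RPM per kb (lowest, median, highest) in cortex and 1.25, 2.40 and 3.92 in gastrocnemius. Every cortex lay above every gastrocnemius, with a difference of 2.62 ± 0.15 (edgeR adjusted p = 8.78e-15), and the body gave 3.15 ± 0.11 (adjusted p = 9.45e-19). The peak extended to 4.17 kb downstream of the TSS. H3K27ac at the promoter was called in 9 of 9 cortexes at 3.70 to 6.71 RPM per kb and in 3 of 10 gastrocnemius libraries at no more than 0.828 (Fisher adjusted p = 0.0334). In cortex a further H3K27ac site lay 25.6 to 29.97 kb downstream, in 7 of 9 libraries, and in 0 of 10 from gastrocnemius. The call of H3K27ac over the body (Fisher adjusted p = 0.0394) was lost when the shallowest (0.105) or the deepest library (0.108) of each tissue was left out.

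H3K27me3 at the Pgr promoter went the other way. It was 1.45, 2.48 and 4.21 RPM per kb in cortex and 2.43, 5.06 and 6.60 in gastrocnemius. The ranges overlapped, and the difference was -0.90 ± 0.16 (edgeR adjusted p = 0.000122). With windows of 500 bp, equally many top-scoring peaks or a minimum of 20 reads this promoter no longer met the requirement in every library and was not tested. Over the body the level was 0.114 to 0.254 in cortex and 0.259 to 1.24 in gastrocnemius, without overlap (-1.75 ± 0.32, adjusted p = 0.000111). Without the deepest library of each tissue, which removes gastrocnemius library 5 with the value of 1.24, the body difference was -1.29 (adjusted p = 1.93e-05). With equally many top-scoring peaks the body was not tested. H3K4me3 and H3K27me3 were called together at this promoter in 9 of 9 cortexes and 10 of 10 gastrocnemius samples, a state present in every gastrocnemius at 6.62% of all promoters. All 3 marks were called in 9 of 9 cortexes and in 3 of 10 gastrocnemius samples.

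**Figure D3:**
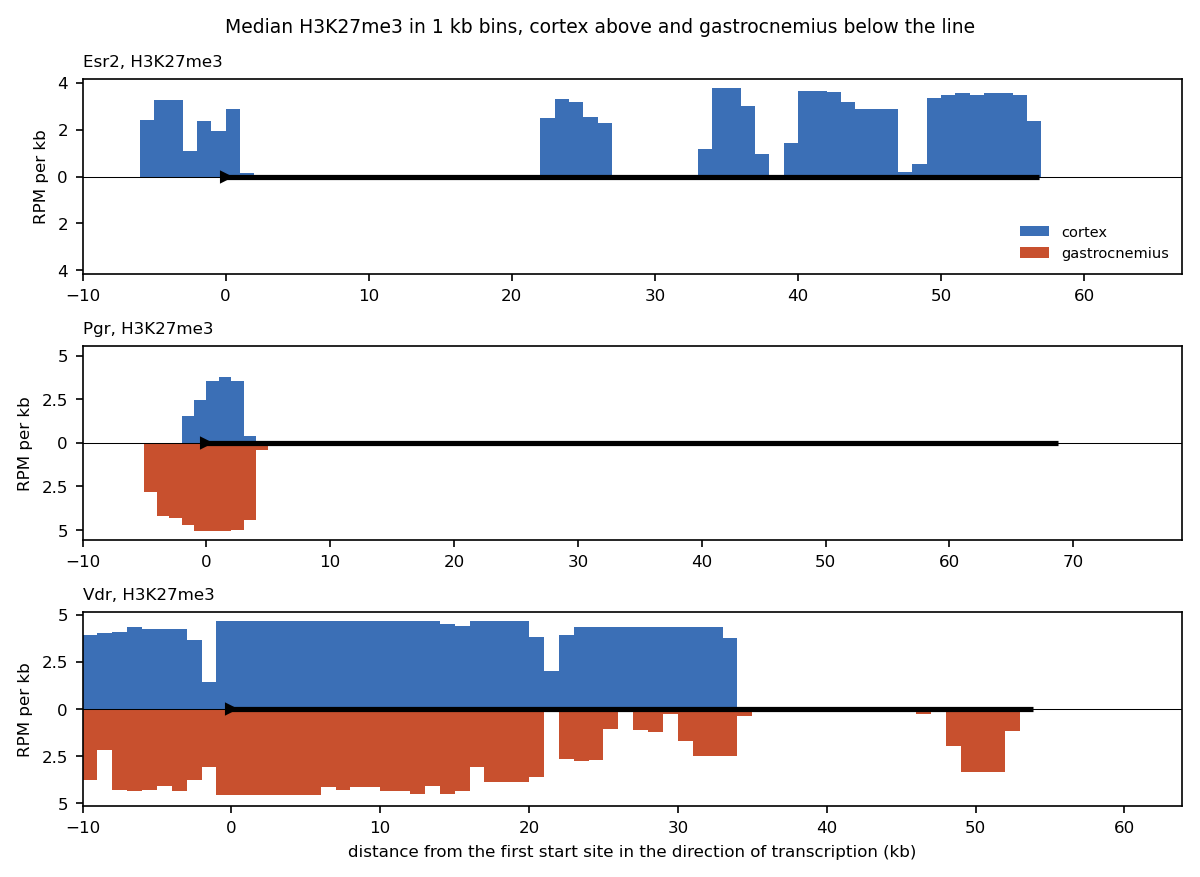
Median H3K27me3 over libraries (RPM per kb, vertical axes) in 1 kb bins along Esr2, Pgr and Vdr, cortex upward and gastrocnemius downward, against the distance from the start site in kb. The bar is the gene and the arrowhead its start. Esr2 has cortex bars only, Pgr is marked around its start in both tissues, and Vdr is marked over much of its body in both.

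Nr3c1 (chr18:39410545-39519421, minus strand) encodes the glucocorticoid receptor, which is expressed in nearly all cells and has several alternative first exons. The 5'-most start, promoter 1, differed between the tissues, and the downstream cluster of 4 starts, promoter 2, was marked in both. Promoter 1 had H3K4me3 in 9 of 9 cortexes at 2.33, 3.67 and 5.84 RPM per kb (lowest, median, highest) and in 0 of 10 gastrocnemius libraries (Fisher adjusted p = 0.0003). H3K27ac was likewise called there in 9 of 9 cortexes, at 2.48, 3.14 and 3.77, and in 0 of 10 gastrocnemius libraries (Fisher adjusted p = 0.000232). Both marks thus gave the same division at this start.

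At promoter 2, H3K4me3 was 19.4 to 22.6 RPM per kb with a median of 21.1 in cortex, and 16.8 to 21.4 with a median of 19.9 in gastrocnemius. These levels overlapped. The edgeR difference of -0.20 ± 0.07 passed (adjusted p = 0.0192), but it had no fixed direction, since scaling by reads in peaks alone gave 0.11 (adjusted p = 0.242), and windows of 2.5 kb gave -0.03 (0.606). H3K27ac at promoter 2 was 5.86 to 7.30 in cortex and 3.14 to 8.75 in gastrocnemius, and the difference of 0.11 ± 0.13 did not pass (adjusted p = 0.515). Whole peak counts, which take in the peak's extent along the gene, gave -0.71 (adjusted p = 0.000285), so no direction is given.

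The body of Nr3c1 held more H3K27ac in muscle. The level was 0.868, 1.08 and 1.48 RPM per kb in cortex and 1.85, 2.01 and 2.55 in gastrocnemius, without overlap, for a difference of -0.93 ± 0.09 (edgeR adjusted p = 1.19e-08). H3K27ac covered a median of 31.1% of the body in cortex and 66.7% in gastrocnemius, mostly downstream of promoter 2. H3K4me3 over the body did not pass (-0.01 ± 0.05, adjusted p = 0.827). H3K27me3 was called at Nr3c1 in 1 cortex library and in none from gastrocnemius.

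**Figure D4:**
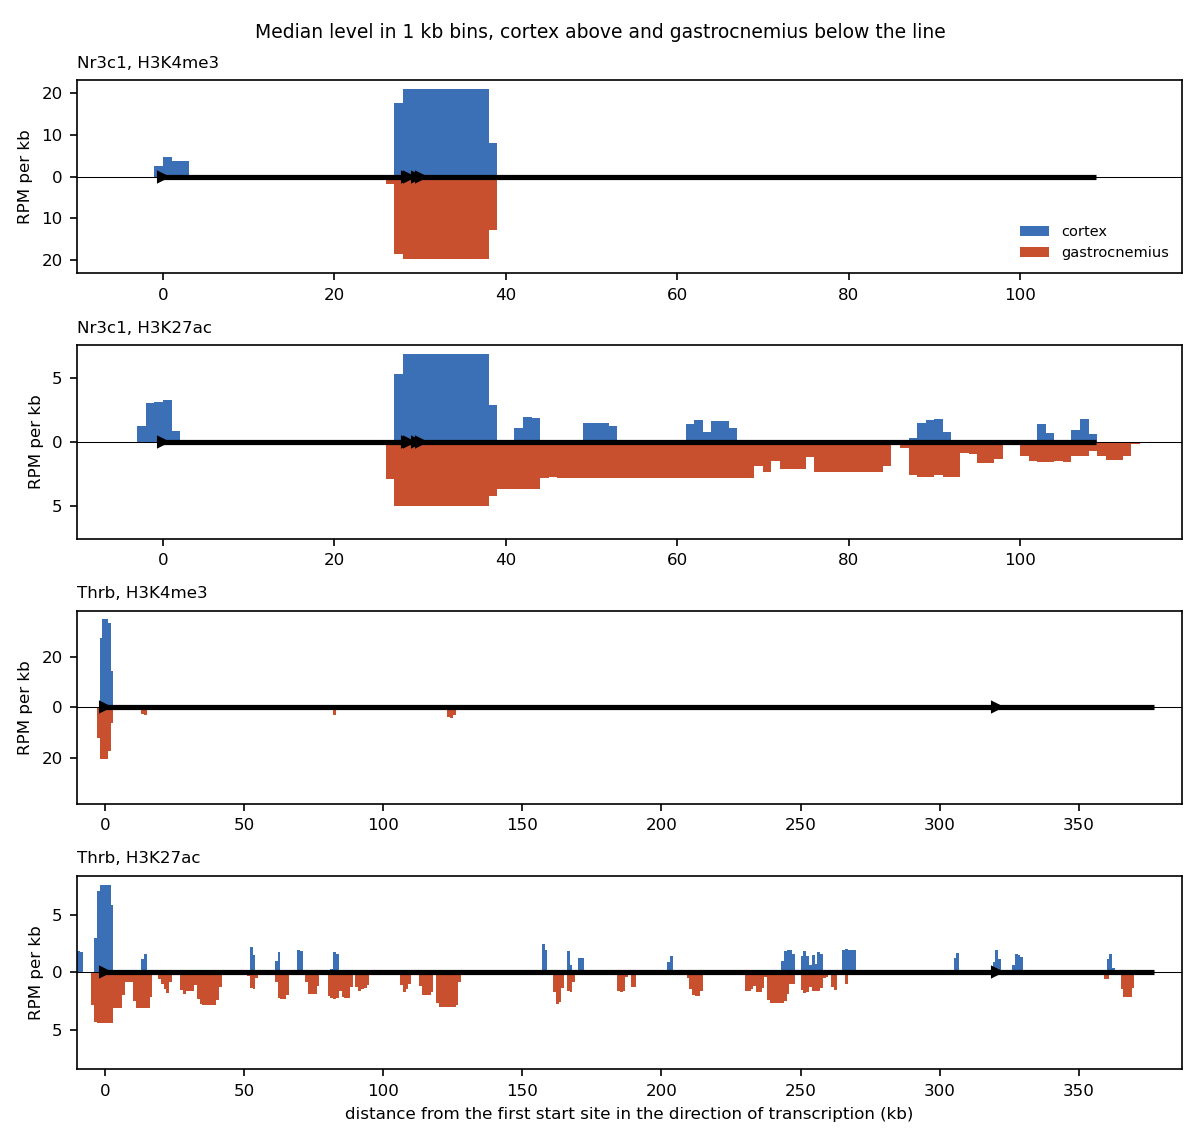
Median level over libraries (RPM per kb, vertical axes) in 1 kb bins along Nr3c1 and Thrb for H3K4me3 and H3K27ac, cortex upward and gastrocnemius downward, against the distance from the first start site in kb. Bars are genes and arrowheads start sites. The first start of Nr3c1 has cortex bars only, and H3K27ac spreads over more of both genes in gastrocnemius.

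Nr3c2 (chr8:76902330-77245012, plus strand) encodes the mineralocorticoid receptor, which binds aldosterone and, with high affinity, glucocorticoids. Its promoter was the most strongly marked by H3K4me3 of the 11 in both tissues, and the tissues did not differ there beyond the test. H3K4me3 was 38.1, 43.8 and 46.2 RPM per kb (lowest, median, highest) in cortex and 32.4, 36.6 and 49.3 in gastrocnemius (-0.12 ± 0.08, edgeR adjusted p = 0.211). H3K27ac at the promoter was 6.21 to 11.7 in cortex and 4.67 to 8.81 in gastrocnemius (0.17 ± 0.10, adjusted p = 0.159), a difference that passed in 4 alternatives, with 0.27 (adjusted p = 0.00761) for windows of 2.5 kb. A lack of a call does not show that the levels were equal. The neighboring gene Gm10649 starts on the other strand 1709 bp away and its promoter lies in the same peaks, so the values belong to both.

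The Nr3c2 body differed in H3K27ac as that of Nr3c1 did. Cortex held 0.152, 0.219 and 0.313 RPM per kb and gastrocnemius 0.386, 0.474 and 0.605, without overlap, and the difference was -1.13 ± 0.14 (edgeR adjusted p = 2.06e-07). Of 17 H3K27ac sites in the gene and its flanks, 5 were called in at most 1 cortex library, among them one from 118 to 136 kb downstream of the TSS in 10 of 10 gastrocnemius libraries (15.5 to 34.4 RPM). Another 2 were called in at most 1 gastrocnemius library, among them one at 183 to 185 kb in 6 of 9 cortexes. H3K4me3 peaks inside the gene, at 230 to 233 kb, were present in 10 of 10 gastrocnemius libraries and in 1 of 9 cortexes. H3K4me3 over the body did not pass (-0.20 ± 0.12, edgeR adjusted p = 0.14), although it did in 4 alternatives, with -0.29 (adjusted p = 0.0364) without the deepest libraries. H3K27me3 was not called at Nr3c2 in any of the 19 libraries.

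Thra (chr11:98741785-98769006, plus strand) encodes thyroid hormone receptor alpha, the main form in brain and skeletal muscle. Its promoter was marked in all libraries by H3K4me3 and H3K27ac and in none by H3K27me3. H3K4me3 was 11.1, 14.6 and 16.9 RPM per kb in cortex and 9.58, 12.7 and 14.4 in gastrocnemius. The ranges overlapped, and the edgeR difference of -0.07 ± 0.09 did not pass (adjusted p = 0.51). Scaling by reads in peaks alone turned it to 0.24 (adjusted p = 0.0377), so no direction is given. H3K27ac was 5.19 to 10.6 in cortex and 4.94 to 9.60 in gastrocnemius (-0.06 ± 0.10, adjusted p = 0.69).

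Over the Thra body, H3K4me3 was 6.08 to 8.23 RPM per kb in cortex and 7.83 to 10.7 in gastrocnemius (-0.52 ± 0.07, edgeR adjusted p = 1.67e-07). The 3' end of Thra overlaps Nr1d1, a clock gene on the other strand that encodes the heme receptor REV-ERB alpha, and a site from 16.8 to 57.6 kb downstream of the Thra TSS covers the starts of Nr1d1 and Msl1. That site held 186 to 222 RPM in cortex and 236 to 582 RPM in gastrocnemius, whereas the site at the Thra start held 199 to 228 and 171 to 206 RPM. Reads of these genes cannot be told apart within the site. H3K27ac at Thra was part of a merged region of 154200 bp that holds the starts of Casc3, Csf3, Gm12359, Med24, Msl1, Nr1d1, Rapgefl1 and Thra, and its level over the Thra body did not pass (0.12 ± 0.10, adjusted p = 0.299).

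Thrb (chr14:17660960-18038088, plus strand) encodes thyroid hormone receptor beta, the form that governs feedback of thyroid hormone on the pituitary and acts in liver, retina and inner ear. Promoter 1 carried H3K4me3 and H3K27ac in every library and promoter 2 had no H3K4me3 peak in any, and their sequences (chr14:17660710-17660959 and chr14:17981394-17981643, plus strand, same assembly) are shown beside that contrast. Capitals mark CpG.
Thrb promoter 1: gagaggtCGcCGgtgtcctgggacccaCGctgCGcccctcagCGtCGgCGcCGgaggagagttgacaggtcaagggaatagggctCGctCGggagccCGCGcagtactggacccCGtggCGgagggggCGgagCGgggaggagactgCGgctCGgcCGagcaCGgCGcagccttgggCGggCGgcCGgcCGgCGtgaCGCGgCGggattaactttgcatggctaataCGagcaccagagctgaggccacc
Thrb promoter 2: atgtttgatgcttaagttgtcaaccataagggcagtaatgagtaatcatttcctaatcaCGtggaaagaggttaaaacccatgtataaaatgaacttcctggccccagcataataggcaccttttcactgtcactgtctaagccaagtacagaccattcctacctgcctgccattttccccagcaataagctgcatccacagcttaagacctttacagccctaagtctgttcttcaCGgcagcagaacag
Promoter 1 holds 30 CpGs, more than 93.9% of all promoter sequences read, with 3 GC boxes and 1 AGGTCA (the core of many nuclear receptor elements, 14.1% of all promoters on either strand). Promoter 2 holds 2 CpGs, with fewer in 18.5% of promoters, 1 TATAAA and 2 AGAACA (the core of steroid receptor elements, 16.1%) on opposite strands.

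H3K4me3 at Thrb promoter 1 was 31.7, 34.7 and 41.6 RPM per kb (lowest, median, highest) in cortex and 15.2, 20.6 and 35.1 in gastrocnemius. The ranges overlapped at the top of the muscle libraries, and the difference was 0.37 ± 0.10 (edgeR adjusted p = 0.0036). H3K27ac was 5.35 to 9.22 in cortex and 3.09 to 6.75 in gastrocnemius (0.41 ± 0.11, adjusted p = 0.0028). With whole peak counts this difference was -0.37 (adjusted p = 0.17), so no direction is given for H3K27ac at this promoter. The H3K27ac site at this start had a median called length of 7400 bp in cortex and 36300 bp in gastrocnemius. Promoter 2 had no H3K4me3 peak in any of the 19 libraries. It had H3K27ac in 6 of 9 cortexes, at 1.53 to 3.51 RPM per kb, and in 0 of 10 gastrocnemius libraries (Fisher adjusted p = 0.0334). This call was lost with equally many top-scoring peaks per library (0.254) or among libraries without an S code in their names (0.567).

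Within the Thrb body, muscle carried more H3K27ac. The level was 0.126, 0.309 and 0.468 RPM per kb in cortex and 0.463, 0.706 and 1.24 in gastrocnemius (-1.43 ± 0.23, edgeR adjusted p = 1.07e-05). The highest cortex lay just above the lowest gastrocnemius. The site at the first start spanned 48000 bp over all libraries and held 39.8 to 53.3 RPM in cortex and 85.5 to 164 RPM in gastrocnemius. Of the 22 H3K27ac sites, 6 were called in at most 1 gastrocnemius library, and 3 in at most 1 cortex library. One of the former, 156 to 159 kb downstream of the first TSS, was present in 9 of 9 cortexes and 1 of 10 gastrocnemius libraries. Inside the gene, 5 H3K4me3 sites were called in gastrocnemius only, the most regular 121 to 126 kb downstream in 10 of 10 libraries. H3K4me3 over the whole body did not pass (-0.07 ± 0.13, adjusted p = 0.645). H3K27me3 was not called at Thrb.

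Vdr (chr15:97854427-97908296, minus strand) encodes the vitamin D receptor, which controls calcium uptake and is low in brain and mature muscle. Its body had the highest H3K27me3 level of the 8 in both tissues, and its promoter carried H3K4me3 as well. The 250 bases before its start (chr15:97908297-97908546, minus strand, same assembly) are shown because the gene kept both marks in every library. Capitals mark CpG.
Vdr promoter: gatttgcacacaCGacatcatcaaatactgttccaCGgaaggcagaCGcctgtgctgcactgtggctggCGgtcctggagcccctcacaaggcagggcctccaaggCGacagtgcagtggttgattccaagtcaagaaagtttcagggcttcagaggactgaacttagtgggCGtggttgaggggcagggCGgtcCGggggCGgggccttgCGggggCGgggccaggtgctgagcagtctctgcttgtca
The stretch has 11 CpGs and 3 GC boxes, 36, 52 and 63 bases before the start.

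H3K27me3 at the Vdr promoter was 4.25, 4.69 and 5.63 RPM per kb (lowest, median, highest) in cortex and 2.44, 4.595 and 6.08 in gastrocnemius, which overlapped (-0.01 ± 0.05, edgeR adjusted p = 0.94). Over the body it was 2.19, 2.82 and 3.26 in cortex and 1.81, 2.49 and 3.16 in gastrocnemius, covering a median of 63.3% and 57.9%. The difference of 0.14 ± 0.07 lay at the edge of the call (adjusted p = 0.0995), and it was lost in 8 alternatives, with adjusted p from 0.103 without the deepest libraries to 0.322 with whole peak counts, among them the mouse (0.12) or the title number (0.192) as a replicate block. The extent differed at the 3' side, where a site 42.7 to 56.7 kb downstream of the TSS was called in 9 of 10 gastrocnemius libraries and 1 of 9 cortexes.

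H3K4me3 at the Vdr promoter was 2.27 to 4.23 RPM per kb with a median of 2.85 in cortex and 5.30 to 7.77 with a median of 6.55 in gastrocnemius. The tissues did not overlap, and the difference was -1.40 ± 0.13 (edgeR adjusted p = 2.33e-10). Over the body H3K4me3 was 0.0540 to 0.162 and 0.129 to 0.302 (-0.98 ± 0.21, adjusted p = 0.000217). Both H3K4me3 and H3K27me3 were called at this promoter in 9 of 9 cortexes and 10 of 10 gastrocnemius samples. H3K27ac was called in 5 of 9 cortexes (1.20 to 1.90 RPM per kb) and 10 of 10 gastrocnemius libraries (1.49 to 2.63), which did not pass (Fisher adjusted p = 0.264) but did with equally many top-scoring peaks (0.000194). An H3K27ac site at 42.1 to 46.3 kb downstream, inside the gene, was called in 9 of 9 cortexes and in 4 of 10 gastrocnemius libraries, and another at 26.9 to 39.1 kb in 4 of 9 and 10 of 10. Over the body H3K27ac did not pass (-0.03 ± 0.20, edgeR adjusted p = 0.922). With whole peak counts, which take in the site at the 3' end, it was -1.35 (adjusted p = 0.0218). The large H3K27ac site past the 3' end, with 17.7 to 26.8 RPM in cortex and 52.5 to 247 RPM in gastrocnemius, covers the start of Hdac7, a histone deacetylase gene 9925 bp away, and was counted in the Vdr body only where it overlapped it.

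**Figure D5:**
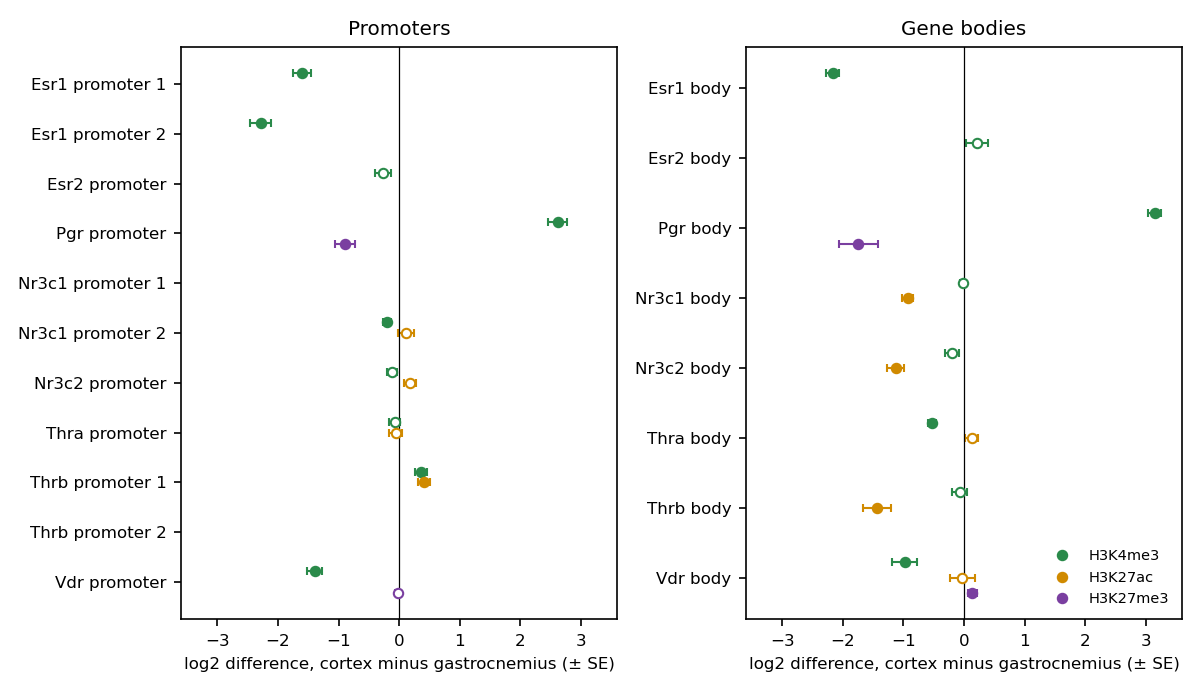
Log2 difference of reads, cortex minus gastrocnemius, with SE (horizontal axes) for receptor promoters (left) and bodies (right) at which every library of a mark had a peak. Filled points have an edgeR adjusted p below 0.1 and open points do not. Pgr lies to the right for H3K4me3 at 2.62 and 3.15, and Esr1 to the left at -1.60, -2.29 and -2.16.

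Other genes of the hormone pathways were counted at their 5'-most promoter. Of 36 other nuclear receptor genes, edgeR called H3K4me3 higher in cortex at 5 (28.9% of all promoters tested) and higher in gastrocnemius at 14 (25.3%) of the 27 tested, and Fisher's test called 1 in favor of gastrocnemius (2.51% of all promoters). The median difference over the 36, in log2 of RPM plus 1, was 0.01, as it was over all first promoters (0.01). H3K4me3 of Esrrb, an estrogen-related receptor without a known natural hormone, was called in 0 of 9 cortexes and 10 of 10 gastrocnemius libraries at 3.06 to 5.89 RPM per kb (Fisher adjusted p = 0.0003). Nr2f1, which patterns the cortex, was higher in cortex by H3K4me3 (11.4 to 15.8 RPM per kb in cortex and 4.65 to 6.41 in gastrocnemius, 0.95 ± 0.09, edgeR adjusted p = 3.84e-10).

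H3K27ac in this list was higher in cortex at 2 (26.2% of all promoters tested) and in gastrocnemius at 11 (24.2%) of 22 tested, and Fisher's test called 1 in each direction (6.64% of all promoters for cortex and 2.94% for gastrocnemius). These were Rorb, a marker of cortical layer IV neurons, called in 9 of 9 cortexes and 2 of 10 gastrocnemius libraries (adjusted p = 0.00918), and Esrrb, in 0 of 9 and 10 of 10 (0.000232). H3K27me3 was higher in cortex at 2 of the 4 tested (25.5%), and Fisher's test called Ppara and Rxrg, each in 9 of 9 cortexes and 3 of 10 gastrocnemius libraries (adjusted p = 0.0402, where 3.44% of all promoters were called in favor of cortex), and Nr2f1, in 1 of 9 and 10 of 10 (0.00283, where 4.79% of all promoters were called in favor of gastrocnemius). The direction of Nr2f1 was thus opposite for H3K4me3 and H3K27me3.

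The 15 coregulators, which receptors recruit to open or close chromatin, had no H3K27me3 peak in any library, a state of 56.2% of all promoters. H3K4me3 was higher in cortex at 3 (28.9% of all promoters tested) and in gastrocnemius at 2 (25.3%) of 13 tested. Ppargc1a, a coactivator of oxidative metabolism in muscle, was called for H3K4me3 in 1 of 9 cortexes and 10 of 10 gastrocnemius libraries (Fisher adjusted p = 0.00259). The 7 receptor chaperones were also free of H3K27me3 peaks, and H3K4me3 was higher in cortex at 2 (28.9% of all promoters tested) and in gastrocnemius at 2 (25.3%), among them Ptges3 (28.7 to 38.2 and 11.2 to 24.3, 0.62 ± 0.10, edgeR adjusted p = 7.14e-06) and Hsp90ab1 (23.6 to 35.6 and 22.7 to 42.4, -0.49 ± 0.10, adjusted p = 0.000206).

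Of 15 genes for the supply of hormones, Fisher's test called 1 in each direction for H3K4me3 (3.82% of all promoters for cortex and 2.51% for gastrocnemius), and edgeR 1 higher in cortex (28.9% of all promoters tested) and 3 higher in gastrocnemius (25.3%) of 5 tested. Slco1c1, the thyroxine transporter of the blood-brain barrier, had H3K4me3 and H3K27ac in 9 of 9 cortexes and 0 of 10 gastrocnemius libraries (Fisher adjusted p = 0.0003 and 0.000232), and so had Crym, which binds thyroid hormone in the cytosol, for H3K27ac (adjusted p = 0.000232). These were the 2 Fisher calls for H3K27ac, both in favor of cortex (6.64% of all promoters), while edgeR called H3K27ac higher in cortex at 1 (26.2% of all promoters tested) and higher in gastrocnemius at 3 (24.2%) of 7 tested. Cyp27b1, which makes the active form of vitamin D, was the H3K4me3 call in favor of gastrocnemius, with a peak in 3 of 9 cortexes and 10 of 10 gastrocnemius libraries (Fisher adjusted p = 0.04996). Cyp27a1, a sterol 27-hydroxylase that also acts on vitamin D, had 6.77 to 10.9 RPM per kb of H3K4me3 in cortex and 17.4 to 20.5 in gastrocnemius (-1.37 ± 0.10, edgeR adjusted p = 4.78e-13), and H3K27me3 in 8 of 9 cortexes and 0 of 10 gastrocnemius libraries (Fisher adjusted p = 0.00283). For H3K27me3, edgeR called 3 of the 5 tested higher in cortex (25.5% of all promoters tested) and 0 higher in gastrocnemius (23.6%). Fisher's test on this mark called 2 genes of this list in favor of cortex (3.44% of all promoters) and 1 in favor of gastrocnemius (4.79%). Cyp11a1, which starts steroid synthesis from cholesterol, was called in 0 of 9 cortexes and 10 of 10 gastrocnemius libraries at 2.03 to 5.79 RPM per kb (adjusted p = 0.000482). Dio2, which makes active thyroid hormone, had H3K27me3 in 8 of 9 cortexes and 0 of 10 gastrocnemius libraries (adjusted p = 0.00283).

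All 11 hormone target genes had H3K4me3 peaks in every library (52.6% of all promoters), with 3 higher in cortex (28.9% of all promoters tested) and 3 higher in gastrocnemius (25.3%). Sgk1, a kinase induced by corticosteroids, was higher in cortex by H3K4me3 (15 to 19.2 RPM per kb against 2.96 to 5.32, 1.71 ± 0.11, edgeR adjusted p = 1.13e-13) and by H3K27ac (4.29 to 7.32 against 1.27 to 2.33, 1.26 ± 0.12, adjusted p = 3.81e-09). Nrgn, a postsynaptic thyroid hormone target, followed it for H3K4me3 (1.36 ± 0.11, adjusted p = 1.06e-11). Thrsp, a lipogenic target, was higher in gastrocnemius (2.37 to 5.99 against 6.32 to 11.9, -1.41 ± 0.14, adjusted p = 4.47e-10). Of the 10 tested for H3K27ac, 3 were higher in cortex (26.2% of all promoters tested) and 6 in gastrocnemius (24.2%).

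The genes most like each receptor were found as the 2 with the smallest root mean square difference in log2 of RPM plus 1 at the 5'-most promoter over all 57 libraries, out of 24963 genes. For Esr1 these were Rasgrp3 (0.44) and Mettl15 (0.45), for Esr2 Wnt5b (0.74) and Echdc2 (0.79), for Pgr Shisa9 (0.46) and Cacna1e (0.48), and for Vdr Col14a1 (0.43) and F2rl1 (0.53). For Nr3c1, whose 5'-most promoter is the one without muscle peaks, they were B230209E15Rik (0.40) and Slco1c1 (0.41). Thra was nearest to Tmem88 (0.22) and Rangrf (0.23) and Thrb to Gm46891 (0.18) and Dcaf12 (0.18). For Nr3c2 they were Gm10649, which lies in the same peaks, and Slc10a7 (0.18).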

How the data were processed

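H3K4me3, H3K27ac and H3K27me3 were profiled by ChIP-seq in cortex (9 libraries per mark) and gastrocnemius (10). Per the study's methods, reads were aligned to mm10 with BWA and filtered with SAMtools, and the authors called peaks in each library on its own with epic2 (200 bp windows, FDR 0.05, allowing gaps of 3 windows for H3K27me3 and of 2 for the other marks). The deposited values used are counts, the whole number of ChIP reads in each called peak; the peak score that epic2 gave, as deposited by the authors, served only to rank peaks. Groups came from sample titles.

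Counts were shared over curated RefSeq promoters (1 kb each side of a TSS) and bodies by overlap. Features with a peak in every library were tested with edgeR 4.0.16 (R 4.3.3, quasi-likelihood, TMM), and peak calls with Fisher's exact test (SciPy 1.17.1), with Benjamini-Hochberg adjustment and a threshold of 0.1 on all autosomal features. DESeq2 1.42.0 was an alternative. The p-values measure the spread between these libraries only, and intervals beyond that are not given. The 8 genes and all gene lists were chosen with earlier results of these data known. Named genes were the 8 receptors, at most 3 called genes per list and mark with the largest difference in mean log2 of RPM plus 1, and the 2 genes most alike to each receptor. Motifs were searched in the 250 bases before a start rather than in the planned window of those and 50 bases after it. On simulated promoter counts, edgeR recovered 84 to 96% of 1.5-fold and 98 to 100% of 2-fold changes. Title numbers do not mark mice throughout, but animal codes in deposited names show that 9 mice gave both tissues, so the mouse was used as a replicate block in an alternative. The deviations of paired samples correlated between -0.0993 and 0.0962. Sex was not compared, because the labels do not give it. Some listed genes that the naming rule would give are not reported here.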

Additional observations from a re-analysis of the deposited data

Results flagged for a closer look

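In 6 of the 73 groups of libraries tested, 1 library stood apart from the others of its tissue by its gap to the nearest value, and chance flags about 1 group in 20. At Esr1 promoter 2, H3K4me3 of cortex 5 was 4.35 RPM per kb (next 2.58), and that of gastrocnemius 6 was 15.3 (next 11.3). Over the Nr3c1 body, H3K4me3 of gastrocnemius 6 was 2.54 (next 2.26). H3K4me3 over the Thrb body was 0.159 in cortex 2 (next 0.196). H3K27me3 over the Esr2 body was 2.27 in cortex 1 (next 1.73). Over the Pgr body, H3K27me3 of gastrocnemius 5, the deepest library of that mark, was 1.24 (next 0.671).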

How the results depend on the processing

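Counts of called receptor features changed by over 1.5 times as follows, and smaller changes, such as those of H3K4me3 at Esr2 and Nr3c1 promoter 2, stand beside their results. For H3K27ac reads at promoters, 1 call became 2 with windows of 2.5 kb, 3 among libraries without an S code, 3 without the shallowest libraries, 3 with scaling by reads in peaks alone and 6 with uncalled libraries at 0 reads. H3K27ac calls at bodies went from 1 to 2 without the first 1 kb and to 0 without the shallowest or the deepest libraries. H3K27ac reads at bodies went from 3 to 5 among libraries without an S code or without the shallowest, and to 6 with uncalled libraries at 0. H3K27me3 calls at promoters rose from 1 to 2 with 2.5 kb, and its reads there went from 1 to 0 with windows of 500 bp, equally many top peaks or at least 20 reads, where the Pgr promoter could not be tested, and to 2 with uncalled libraries at 0. H3K27me3 calls at bodies fell from 2 to 1 at 25% coverage. H3K27me3 reads at bodies went from 2 to 1 without the first 1 kb, with equally many top peaks, among libraries without an S code, without the deepest libraries, with whole peak counts, with reads in peaks alone, with at least 20 reads, and with a replicate block by title number (1) or by animal (1), and to 4 with uncalled libraries at 0. The replicate block lost the call of H3K27me3 over the Vdr body and changed no other call. The cause was not tested.

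Directions turned in these cases. With reads in peaks alone, H3K4me3 was 0.19 at Nr3c2, 0.24 at Thra, 0.054 at Esr2, 0.11 at Nr3c1 promoter 2 and 0.028 over the Nr3c1 body, H3K27ac 0.22 at the Thra promoter, and H3K27me3 0.088 at the Vdr promoter. With 2.5 kb windows, H3K4me3 was 0.091 at Nr3c2 and 0.19 at Thra, and H3K27ac 0.056 at Thra. With whole peak counts, H3K4me3 was 0.16 at Thra, 0.014 at Esr2, 0.078 over the Thrb body and 0.062 over the Nr3c1 body, H3K27ac 0.18 at the Thra promoter, -0.37 at Thrb promoter 1, -0.71 at Nr3c1 promoter 2 and -0.081 over the Thra body, and H3K27me3 0.40 at the Vdr promoter. Without the first 1 kb, H3K4me3 was 0.16 over the Nr3c1 body and H3K27ac 0.13 over the Vdr body. With equally many top peaks, H3K4me3 was 0.089 over the Thrb body and 0.0048 over the Nr3c1 body. Without the shallowest libraries it was 0.00084 over the Nr3c1 body, and H3K27ac 0.0044 over the Vdr body, which was 0.070 without the deepest. H3K4me3 at Thra was 0.0035 among libraries without an S code, and H3K27me3 at the Vdr promoter 0.063 with uncalled libraries at 0.

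Over all features, calls moved by over 1.5 times for H3K4me3 calls at bodies (1277 to 812 among libraries without an S code), H3K27ac reads at promoters (7033 to 11323 with uncalled libraries at 0), H3K27ac calls at bodies (2032 to 3282 at 25% coverage, split 1528 for cortex and 1754 for gastrocnemius against 1438 and 594), H3K27me3 reads at promoters (1064 to 642 with 500 bp, 468 with reads in peaks alone and 4800 with uncalled libraries at 0) and at bodies (2033 to 5942 with uncalled libraries at 0). The split of H3K4me3 calls at bodies, 733 and 544, was 322 and 1126 at 25% coverage and 722 and 844 without the first 1 kb.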
